A study of Mus musculus with 2 samples.

Results

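Fc gamma receptors are the surface proteins with which macrophages bind immunoglobulin G on coated particles. The gene set described here has 9 members, listed by name: the activating receptors Fcgr1, Fcgr3 and Fcgr4, the inhibitory receptor Fcgr2b, the adaptors Fcer1g and Tyrobp, the kinases Syk and Lyn, and the phosphatase Ptpn6. For each gene the array feature that carries its symbol alone was taken, which found 8 of the 9 among 22180 named genes. No feature in the platform annotation used here carried the symbol of Lyn alone, so Lyn was not analysed here. Each of the 8 had 1 feature, and all 8 were above the floor on both arrays. The floor is the median of all deposited values, 4.65 on the log2 scale, and 13015 genes that exceeded it on at least 1 array were compared.

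The samples were alveolar macrophages, the phagocytes that live on the surface of the alveoli, isolated from mice 8 to 10 weeks old with a cell sorter. One array came from Lysm-Cre mice and is the control, and the other from mice labelled Lysm-Cre Ssu72fl/fl. Both genotypes carry Lysm-Cre, a Cre recombinase driven by the lysozyme 2 gene, which myeloid cells of many kinds express, so recombination is not limited to alveolar macrophages. In the second genotype both alleles of Ssu72, a phosphatase of the RNA polymerase II C-terminal domain, are flanked by recombination sites. With 1 array per genotype there is no replicate check and no test between genotypes, and the sources used here do not state how many mice stand behind an array. All differences are log2 values of the Lysm-Cre Ssu72fl/fl array minus the control array.

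Receptor signalling of this kind is a balance. Fcgr1, Fcgr3 and Fcgr4 reach the surface and signal through the common gamma chain encoded by Fcer1g, whose ITAM (a paired tyrosine motif) is phosphorylated by Src family kinases such as Lyn and then binds Syk. Fcgr2b instead carries an inhibitory motif, the ITIM, in its own tail and recruits phosphatases that end the signal. In alveolar macrophages these proteins serve the uptake of antibody-coated microbes and particles.

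On the deposited scale all 8 genes were lower on the Lysm-Cre Ssu72fl/fl array, where 51.9% of all compared genes were lower. Among the 200 genes nearest to each in signal level, the share that was lower ran from 47.5% for Fcgr4 to 88.5% for Fcer1g. The median difference of the 8 was -0.36, and that of all compared genes was -0.0068. None of the 8 was 2-fold different, which 0.115% of compared genes were. Fcgr3 and Fcer1g were at least 1.5-fold lower, as were 1.37% of compared genes. Fcer1g was not after quantile normalization (-0.21) or lowess (-0.15), which left 1 of the 8, Fcgr3. All 8 stayed lower after median centring, quantile normalization and removal of the trend with signal level by lowess. Of all compared genes, 55.6% were lower with median centring, 48.2% with quantile normalization and 46.2% with lowess.

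**Figure D1:**
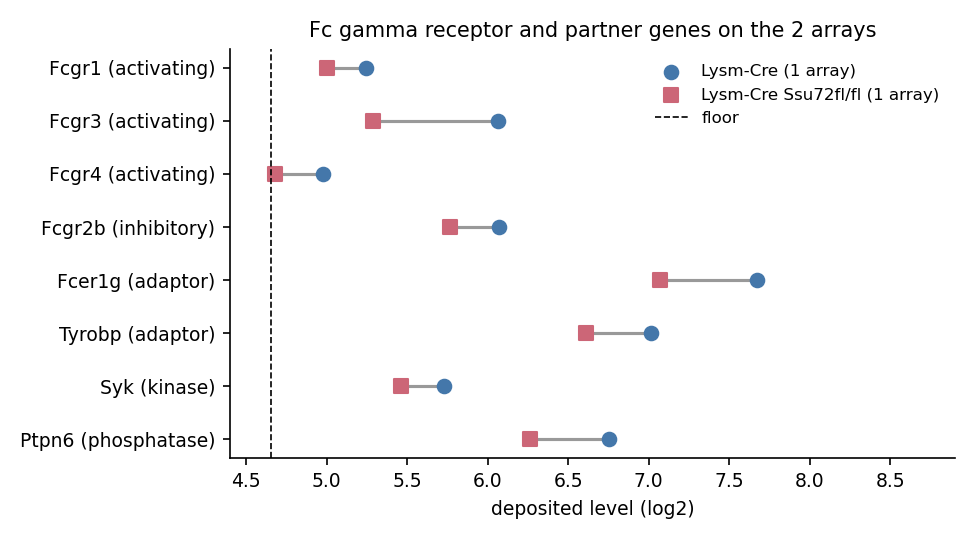
Deposited log2 level of each of the 8 genes (horizontal axis) on the Lysm-Cre array (blue circles) and the Lysm-Cre Ssu72fl/fl array (red squares), 1 array each, with the floor of 4.65 as a dashed line. Each square lies to the left of its circle; the gap is widest for Fcgr3, and the square of Fcgr4 touches the floor.

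The size of these differences cannot be read apart from signal level, because the difference between the arrays varied with it. Over all features the median difference was 0.0080 at levels 4 to 5, -0.037 at 5 to 6, -0.28 at 6 to 7 and -0.44 at 7 to 8. Each gene is therefore also given relative to the median difference of the 200 compared genes nearest to it in mean level, called the level-adjusted difference. The robust standard deviation (scaled median absolute deviation) of those 200 genes is called the spread at its level. It is scatter between genes, not between animals. Level-adjusted differences of all 8 were below 0, as were those of 49.8% of compared genes, with a median of -0.21. In 3 of the 8, the activating receptors, the level-adjusted difference was lower by more than the spread, a rule chosen after the values were seen. The same was true of 18.7% of compared genes.

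**Figure D2:**
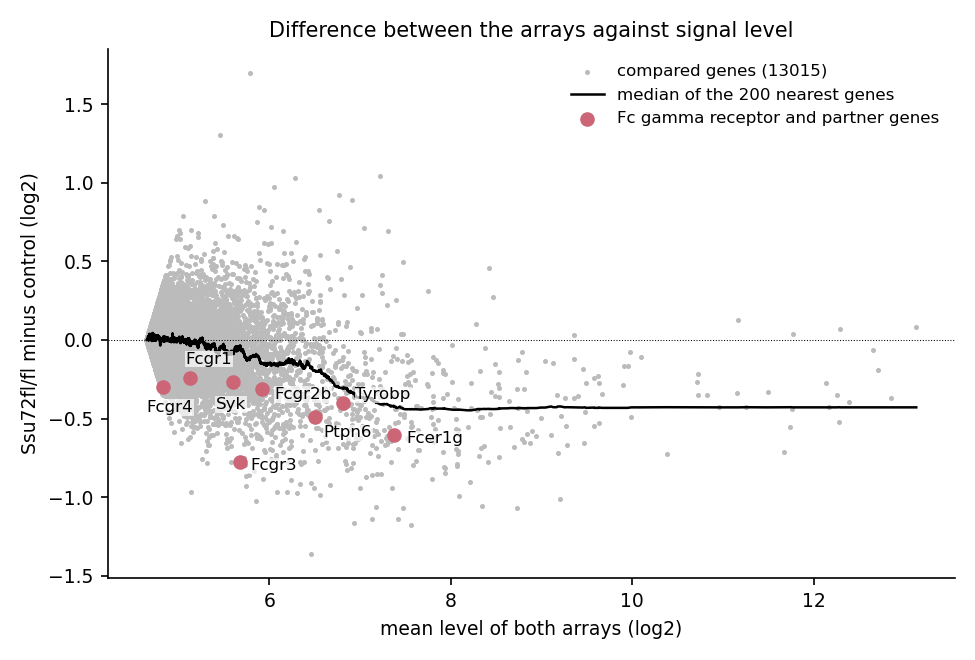
Difference between the arrays (log2, vertical axis) against the mean level of both (log2, horizontal axis) for 13015 compared genes in grey, with the median of the 200 genes nearest in level as a black line and the 8 genes in red. Fcgr3, at -0.78, lies far below the line, and Tyrobp and Fcer1g lie close to it, at levels where the line itself has dropped to -0.30 and -0.42.

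Fcgr3 had the largest difference of the set. It encodes CD16, a low-affinity activating receptor for immune complexes. It had a control level of 6.06 and a Ssu72fl/fl level of 5.29, a difference of -0.78, or 1.71-fold lower. The median of the 200 genes nearest in level was -0.042, which left a level-adjusted difference of -0.73, with a spread of 0.22. Unlike the adaptors, Fcgr3 lies at a level where the trend is small, and 59.0% of its nearest genes were lower.

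The other activating receptors were lower by less. Fcgr1 encodes CD64, the high-affinity receptor that can bind monomeric immunoglobulin G. Fcgr1 had a control level of 5.24 and a Ssu72fl/fl level of 5.001, a difference of -0.24 and a level-adjusted difference of -0.23 against a spread of 0.16. Fcgr4, a receptor for the IgG2 subclasses, read 4.98 and 4.68, a difference of -0.30 and a level-adjusted difference of -0.31 against a spread of 0.13. The second Fcgr4 value was 0.027 above the floor, so little of its range lay above background. With the floor at the 75th percentile the Fcgr4 difference was -0.0094, because both values then lay at or next to that floor.

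Fcgr2b encodes CD32B, the inhibitory receptor, and is the gene against which the activating receptors were contrasted. It had a control level of 6.07 and a Ssu72fl/fl level of 5.76, a difference of -0.31. At its level the nearest genes had a median of -0.15, which left a level-adjusted difference of -0.16, inside the spread of 0.26. So the inhibitory receptor was lower too, by an amount close to that of Fcgr4 on the deposited scale.

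The contrast asks whether activating and inhibitory receptors differed between the genotypes to the same extent. The mean difference of the 3 activating receptors was -0.44 and that of Fcgr2b -0.31, so the contrast was -0.13. It has no spread of its own, since each genotype had 1 array. On the deposited scale the contrast rested on Fcgr3. Taken alone against Fcgr2b on that scale, Fcgr3 gave a contrast of -0.47, Fcgr4 one of 0.0099 and Fcgr1 one of 0.066. Without Fcgr3, a choice made after the values were seen, it was 0.038, with the opposite sign. With level-adjusted differences the contrast was -0.26 over the 3 receptors and -0.11 without Fcgr3. Each receptor taken alone was then below Fcgr2b, with contrasts of -0.57 for Fcgr3, -0.15 for Fcgr4 and -0.072 for Fcgr1. The extracellular parts of Fcgr2b and Fcgr3 are very similar in sequence in the mouse. The sources used here do not state where the array's probes lie in either transcript, so signal shared between the 2 genes cannot be separated, and their values are uncertain to that extent.

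Promoter sequences of the 4 receptors are shown because they allow the activating genes and the inhibitory gene to be set side by side at the sequence level. RefSeq promoter entries, assembly GRCm38.p6, were found for 7 of the 9 members; the lines give the 120 bases before the transcription start, 5′ to 3′ on the gene's strand. Capitals mark GAGGAA, a core sequence bound by the macrophage factor PU.1, which reads TTCCTC where it stands on the opposite strand. It was searched on both strands.
Fcgr1, chr3:96293970-96294089, minus strand: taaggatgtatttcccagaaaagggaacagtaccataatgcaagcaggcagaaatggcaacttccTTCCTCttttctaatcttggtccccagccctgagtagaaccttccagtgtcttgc
Fcgr3, chr1:171059404-171059523, minus strand: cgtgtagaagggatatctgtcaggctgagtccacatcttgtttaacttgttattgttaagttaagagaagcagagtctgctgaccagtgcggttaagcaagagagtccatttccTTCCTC
Fcgr4, chr1:171018806-171018925, plus strand: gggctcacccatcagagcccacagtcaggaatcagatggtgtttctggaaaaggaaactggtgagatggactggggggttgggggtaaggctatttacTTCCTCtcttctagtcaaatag
Fcgr2b, chr1:170976072-170976191, minus strand: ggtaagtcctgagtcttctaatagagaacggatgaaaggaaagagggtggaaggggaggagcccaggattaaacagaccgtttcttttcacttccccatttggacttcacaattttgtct

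The letters GAGGAA stood once in each activating receptor's window, all on the strand opposite the gene. They began 55 bases before the start in Fcgr1, 22 in Fcgr4 and 6 in Fcgr3, whose table entry lists 2 neighbouring start sites that both hold it. These letters were not in the Fcgr2b window. Among the other members with an entry, they were absent from the windows of Fcer1g and Ptpn6. Syk held them at start site 2 but not at start site 1. Only these exact letters were searched, so a PU.1 site with other letters would not be marked in any window, that of Fcgr2b included. Over all 32851 promoter entries, 11.6% held GAGGAA in a window of this length. A match of letters is not a measured binding site, and no binding was measured in this series.

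The adaptor genes were lower on the deposited scale by amounts close to those of other genes at their signal level. Fcer1g, the common gamma chain that the activating receptors need, had a control level of 7.67 and a Ssu72fl/fl level of 7.07, a difference of -0.60. Most genes at that level were lower as well: 88.5% of its 200 nearest genes were, with a median of -0.42. The level-adjusted difference of Fcer1g was -0.19, inside the spread of 0.29.

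Tyrobp, or DAP12, is the ITAM adaptor of receptors such as Trem2 rather than of Fc gamma receptors. Its level was 7.01 on the control array and 6.61 on the other, a difference of -0.40. After adjustment it was -0.099 against a spread of 0.29, the smallest level-adjusted difference of the set, and 81.0% of its nearest genes were lower. Under quantile normalization the Tyrobp difference was -0.021 and under lowess -0.030.

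Syk, the kinase that docks on phosphorylated ITAMs and starts phagocytic signalling, had a control level of 5.73 and a Ssu72fl/fl level of 5.46. The difference was -0.27 and the level-adjusted difference -0.19, inside a spread of 0.25. Ptpn6, or SHP-1, is a tyrosine phosphatase that binds ITIM receptors and dampens these signals. It read 6.75 and 6.26, a difference of -0.49 and a level-adjusted difference of -0.29, against a spread of 0.31. The signalling genes that start and that dampen the response were therefore both lower on the deposited scale, and neither left the scatter of genes at its level.

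**Figure D3:**
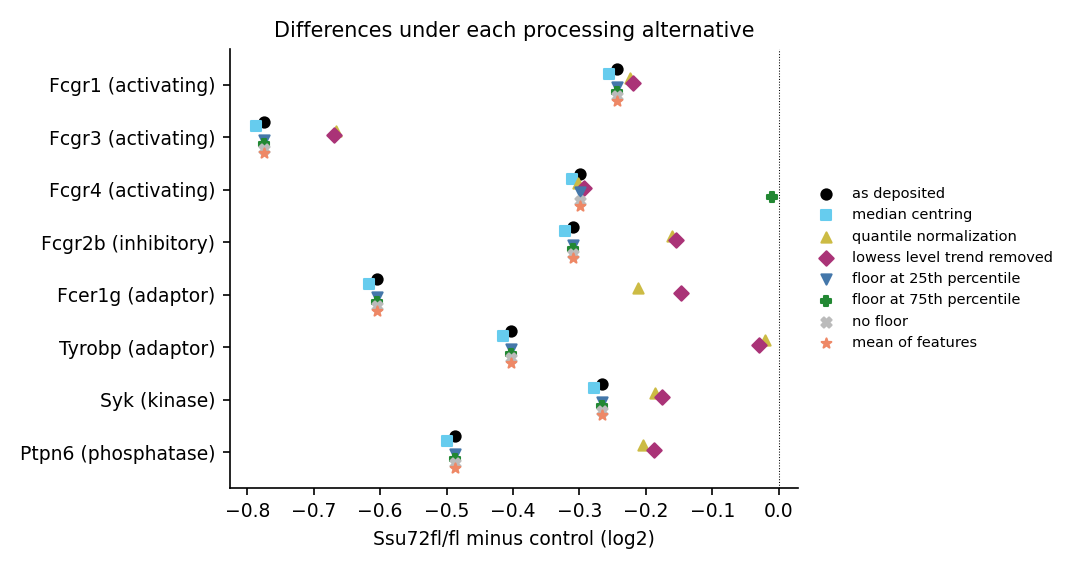
Difference between the arrays (log2, horizontal axis) of each of the 8 genes under 8 processing settings, 1 symbol per setting. Every symbol lies below 0; quantile normalization and lowess move Fcer1g, Tyrobp and Ptpn6 the most and leave Fcgr3 at -0.67 in both.

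Around these genes, 7 lists of the wider pathway held 117 different compared genes. As deposited, 78 of them were lower, beside 51.9% of all compared genes, and their median was -0.073. After level adjustment 68 were lower, beside 49.8% of all compared genes, and the median was -0.023. None was 2-fold different, which 0.115% of all compared genes were. Of the 117, 6 were lower by 1.5-fold or more and 1 was higher by 1.5-fold or more. Of all compared genes, 1.37% were lower and 0.315% higher by that much. After quantile normalization, and likewise with lowess, 0 of the 117 were lower by that much and 1 was higher. The share of all compared genes past 1.5-fold under these settings is not given here.

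Other receptors for immunoglobulins and Fc receptor-like genes were not lower as a list. Among 12 compared genes 4 were lower, 8 were higher and the median was 0.056, and 5 were lower after quantile normalization. With the floor at the 75th percentile only 2 were compared, Fcgrt and Fcrlb. Of these 1 was lower, and the median was -0.044. Fcgrt, the neonatal Fc receptor that recycles immunoglobulin G from endosomes, had a control level of 6.58 and a Ssu72fl/fl level of 6.25, a difference of -0.33 (level-adjusted -0.18, spread 0.35). Fcrlb, an intracellular Fc receptor-like gene, read 5.32 and 5.56, a difference of 0.24 (level-adjusted 0.33, spread 0.23). Of the remaining 10, Fcmr (-0.089), Fcamr (-0.077) and Fcrls (-0.030) were lower and Fcer2a (0.00077), Pigr (0.049) and Fcrl6 (0.077) higher. Fcrla, Trim21, Fcrl1 and Fcrl5 were below the floor on the control array, so their differences of 0.064, 0.068, 0.084 and 0.11 are lower bounds. The mast cell IgE receptor chains Fcer1a and Ms4a2 were below the floor on both arrays.

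Receptors that signal through Fcer1g or Tyrobp showed no common direction. Of 15 compared, 10 were lower with a median of -0.014, but after quantile normalization 7 were lower and the median was 0.0064. Clec4n, or dectin-2, was lowest (-0.29, level-adjusted -0.23, spread 0.21), followed by Treml4 (-0.23). Trem2, a Tyrobp-paired lipid receptor, was highest: it read 4.90 and 5.10, a difference of 0.20 against a spread of 0.15. It was followed by Clec4e, or Mincle (0.18). Siglec15 (-0.090) and Trem1 (-0.024), with the strongest signals of the list, were close to 0 on the deposited scale and above it when level-adjusted (0.063 and 0.13).

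Among receptors with an ITIM, like Fcgr2b, 11 of 16 compared genes were lower (median -0.076, and -0.057 with 11 lower after quantile normalization). Lilrb4a, an inhibitory immunoglobulin-like receptor, had a control level of 7.77 and a Ssu72fl/fl level of 7.07, a difference of -0.70 (level-adjusted -0.27, spread 0.29). Cd33, a sialic acid-binding receptor, read 5.99 and 5.40, a difference of -0.59, and its level-adjusted difference of -0.53 exceeded the spread of 0.24. Sirpa, the receptor for CD47 that restrains phagocytosis, was at -0.24 on the deposited scale and 0.032 when level-adjusted. Pirb (0.20) and Ceacam1 (0.17) were highest.

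Kinases of the Src and Tec families and their regulators were about evenly divided, with 4 of 9 compared lower and a median of 0.010, or 0.044 after quantile normalization. Pag1 (-0.22) and Tec (-0.11) were lowest. Blk (0.22) and Csk (0.17), the kinase that holds Src family members inactive, were highest, and Src was at 0.010. Negative regulators of immunoreceptor signalling were divided as well, with 7 of 14 compared lower. Their median was -0.043 on the deposited scale and turned to 0.030 after quantile normalization. Ptprc, the phosphatase CD45 that activates Src family kinases, was lowest (-0.52, level-adjusted -0.13), followed by Ptpn12 (-0.33, level-adjusted 0.071). Cblb (0.25) and Dok1 (0.23) were highest, and both exceeded the spread when level-adjusted (0.30 against 0.17, and 0.23 against 0.13).

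Adaptors and effectors downstream of Syk were mostly lower on the deposited scale, 23 of 30 compared with a median of -0.092, and 18 of 30 after quantile normalization with a median of -0.052. Malt1, a paracaspase that acts with Card9 and Bcl10, had a control level of 5.57 and a Ssu72fl/fl level of 5.05, a difference of -0.51 (level-adjusted -0.48, spread 0.21). Pik3ap1, an adaptor of phosphoinositide 3-kinase, was at -0.50 (level-adjusted -0.11, spread 0.30). Lat, a membrane adaptor best known from T cells, read 4.87 and 5.56. This difference of 0.68 (level-adjusted 0.73, spread 0.19) was the only one of the pathway lists to be 1.5-fold higher, as 0.315% of compared genes were. Shc1 (0.18) came next, and Lcp2, the adaptor SLP-76, was at 0.010 (level-adjusted 0.21).

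Genes for the actin machinery of the phagocytic cup and for the phagocyte oxidase had the lowest median of the 7 lists. Of 21 compared, 19 were lower with a median of -0.34; after quantile normalization 15 were lower with a median of -0.095. Cdc42, a small GTPase that drives filopodia and the phagocytic cup, had a control level of 7.66 and a Ssu72fl/fl level of 6.80, a difference of -0.85 (level-adjusted -0.45, spread 0.29). Cdc42 has 2 features, and their mean gave a difference of -0.35, under 1.5-fold. The feature not used was therefore higher on the Ssu72fl/fl array, so the features of this gene disagreed in direction. Arpc2, an Arp2/3 complex subunit, read 8.34 and 7.53, a difference of -0.81 (level-adjusted -0.37, spread 0.30). Cybb, the catalytic oxidase subunit (-0.61, level-adjusted -0.20), and Gsn, the actin-severing protein gelsolin (-0.60, level-adjusted -0.50), were the other 1.5-fold lower members. Itgb2, the shared chain of the beta-2 integrins, was at -0.38 on the deposited scale and 0.068 when level-adjusted. Arf6 (0.0050) and Wasl (0.0032) were the members higher on the deposited scale.

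**Figure D4:**
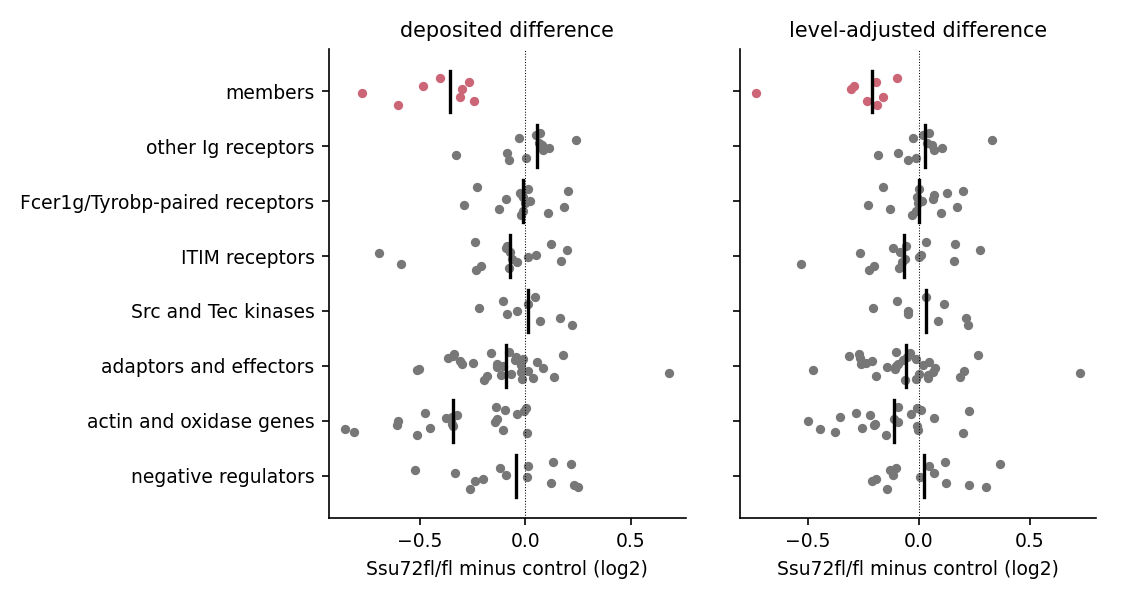
Difference between the arrays (log2, horizontal axes) for each compared gene of the 8 Fc gamma receptor and partner genes (red) and 7 pathway lists (grey), as deposited on the left and level-adjusted on the right, with vertical bars at list medians. The red points are all below 0 in both panels, and the median of the actin and oxidase list moves from -0.34 to -0.11.

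Several checks bear on the samples. Ssu72 itself was not lower on the array with the floxed genotype. Its levels were 4.862 in the control and 4.998 there, 0.14 apart, and its level-adjusted difference of 0.13 was below the spread of 0.14. Both levels lay close to the floor of 4.65, so there was little range in which a lower value could show. With the floor at the 75th percentile the difference was 0.029. The sources used here do not state where its probes lie relative to the floxed part, and the genotype rests on the label. All 9 alveolar macrophage markers with a feature were above the floor on both arrays. Their levels ran from Chil3, at 9.42 and 9.30, down to Siglecf (5.18 and 5.09) and Fabp4 (5.06 and 5.24), much nearer the floor. Interstitial macrophage markers were lower in 6 of 7, with a median of -0.39 and a list mean of 6.19 on the control array and 5.76 on the other, also in 6 of 7 after quantile normalization (median -0.34). Of these, H2-Ab1 had a control level of 9.26 and a Ssu72fl/fl level of 8.19, a difference of -1.07 (level-adjusted -0.64, spread 0.29). It was among the 11 compared genes at least 2-fold lower, and was at -0.61 after quantile normalization. Cx3cr1 was next lowest (-0.63, level-adjusted -0.49, spread 0.29), while Folr2 was higher (0.12). Monocyte markers were lower in 5 of 6, with a median of -0.26 and a list mean of 5.14 and 4.92, also in 5 of 6 after quantile normalization (median -0.23). Plac8 was lowest of them (-0.38), and Vcan was higher (0.057). Alveolar macrophage markers were lower in 8 of 9 (median -0.25, list mean 6.84 and 6.60), but in 5 of 9 after quantile normalization (median -0.027). Interstitial macrophages and monocytes also express Fc gamma receptors, and the part of these markers in the receptor differences was not tested. In bulk RNA, fewer cells of a type and less RNA per cell cannot be told apart.

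Several markers of other cell types were below the floor on both arrays, and others were well above it. The neutrophil markers Ly6g, Cxcr2 and Camp, the NK cell markers Ncr1 and Klrb1c, the B cell marker Ms4a1, the dendritic cell markers Zbtb46 and Xcr1 and the mast cell markers Cpa3, Fcer1a, Ms4a2 and Mcpt4 were among those below it. Of the same dendritic cell list, Cd209a had a control level of 8.97 and a Ssu72fl/fl level of 8.65, a difference of -0.31 that turned to 0.11 after quantile normalization. Sftpc, which encodes a surfactant protein, had levels of 8.71 and 8.35, and its level-adjusted difference was 0.074. The neutrophil markers S100a8 (-0.096), S100a9 (-0.032), Ngp (-0.092) and Retnlg (-0.056) were each lower by less than the spread at their level, with a list mean of 4.89 on the control array and 4.82 on the other. B cell markers were lower in 2 of 5, with a list mean of 4.98 and 5.02, and NK cell markers in 2 of 3, with a list mean of 4.88 and 4.85. Compared markers of mast cells, basophils and eosinophils were lower in 0 of 3 (4.84 and 4.93), and dendritic cell markers in 3 of 3 (6.21 and 6.09), or in 2 of 3 with lowess. Alveolar type 2 cell markers were lower in 3 of 5 (6.15 and 5.99), but in 2 of 5 after quantile normalization.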

How the data were processed

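The deposited table gives the authors' log2 values for 33793 Affymetrix features on 2 arrays. Each was labelled from 6 ug of RNA, according to the protocols in the labels. The log2 scale was inferred from the range of 4.23 to 13.5. MAS5 is named, with no role, in the submitters' processing notes. The sources used here do not state the background correction, normalization, offset or genome build; an offset would make differences at low signal too small. Column medians were 4.65 (control) and 4.66. Of the features, 23521 carried 1 gene symbol, 1814 several and 8458 none; 23328 took their current symbol from RefSeq through the Entrez identifier.

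Each gene took its feature with the highest mean. Values under the floor (50th percentile of all values) were set to it; 2081 of 13015 compared genes were below it on 1 array and have a bound. No test was possible. Alternatives were median centring, quantile normalization, lowess (statsmodels 0.14.6), other floors, feature means, other folds and 100 or 400 nearest genes. The number of arrays limits the precision. The procedure was tested on simulated arrays. Members and lists were chosen with earlier results of these data known. Named were all members, all compared other immunoglobulin receptors, of other pathway lists the 2 lowest, 2 highest and 2 of highest mean level and any 1.5-fold different gene, and cell type markers; genes named besides these were chosen after their values were seen. Python 3.11.15, numpy 2.4.6 and pandas 2.3.3 were used.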

Additional observations from a re-analysis of the deposited data

How the results depend on the processing

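All 8 members were lower, and none was 2-fold different, under median centring, quantile normalization, lowess, floors at the 25th and 75th percentiles, no floor and feature means. Under these settings the share of all compared genes that was lower ran from 46.2% (lowess) to 57.5% (floor at the 75th percentile). With a threshold of 1.5-fold, 2 were different on the deposited scale, both lower, and 1 after quantile normalization or lowess, where Fcer1g was lost. On the deposited scale 1.37% of compared genes were lower by that much and 0.315% higher. The shares after quantile normalization or lowess are not given here. The median difference ran from -0.37 (median centring) to -0.18 (lowess), and the level-adjusted median from -0.25 (400 nearest genes) to -0.19 (floor at the 75th percentile). The contrast of activating and inhibitory receptors turned to 0.0099 with the median of the activating receptors in place of their mean, and to 0.038 without Fcgr3, an alternative added after seeing the data. Under the other alternatives it ran from -0.26 (level-adjusted) to -0.034 (floor at the 75th percentile, where Fcgr4 is limited by the floor). Over all genes the count at least 2-fold lower went from 11 to 1 and the count higher from 4 to 13 with quantile normalization, and to 1 and 11 with lowess. Of the named genes, 19 moved by more than the spread at their level with quantile normalization and 77 did not; with lowess 18 moved. Without replicate arrays no replicate could be left out and no paired analysis was possible because each genotype had 1 array.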

Other observations

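The genes Fcgr2b, Fcgr4, Fcgr3 and Fcer1g follow each other in this order on chromosome 1 in RefSeq, with other genes between Fcgr3 and Fcer1g. The neighbours were looked up after the values of the members had been seen. Of the 4 compared genes between Fcgr2b and Fcer1g that are not members, Pcp4l1 was lowest (-0.19), followed by Sdhc (-0.043), a subunit of succinate dehydrogenase, and Nr1i3 (-0.031), and Apoa2, an apolipoprotein, was highest (0.040). With the 5 compared genes on either side, 14 neighbours were measured, of which 6 were lower, with a median of 0.022 and a range from -0.19 to 0.24 on the deposited scale (level-adjusted median -0.0068). On that scale the 4 members lay outside the range, from -0.78 for Fcgr3 to -0.30 for Fcgr4. When level-adjusted, the neighbours ran from -0.19 to 0.33, and Fcgr2b (-0.16) and Fcer1g (-0.19) lay inside, while Fcgr3 (-0.73) and Fcgr4 (-0.31) lay below. The highest neighbour was the Fc receptor-like gene Fcrlb. The mean levels of the 14 neighbours ran from 4.68 for Fcrla to 5.63 for Olfml2b, against 5.92 for Fcgr2b and 7.37 for Fcer1g, so the level trend differs between them.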
